A study of Mus musculus with 29 samples.

Results

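The Siglec receptors examined here were 6 mouse genes, Siglece, Cd33, Siglecf, Siglecg, Siglec1 and Siglech, out of 48709 Ensembl genes in the count tables. They were listed by symbol and matched to Ensembl identifiers. The family was chosen from the co-culture contrast of these data, where Siglece was lower after anti-miR-99b while most microglial genes were higher. The co-culture values, those of its sc-control libraries included, are therefore given as a description without a p value. Tests are reported for the PFC and microglia experiments and for the control microglia against the control PFC. The libraries compared there did not enter that choice. The fit of the controls also held the co-culture controls, which took part in its filter, scaling and estimate of spread.

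The study was made of 29 RNA-seq libraries in 3 experiments that compared anti-miR-99b, a locked nucleic acid oligonucleotide against miR-99b-5p, with sc-control, a negative control oligonucleotide. For the PFC (prefrontal cortex), male C57BL/6J mice of 3 months were injected with lipid nanoparticles that carried the inhibitor (3 mice, group anti-miR-99b) or the control (3 mice, group sc-control), and 1 piece of tissue per mouse was taken 5 days later. For the primary microglia, cells were grown from brains of CD1 pups at postnatal day 1 as mixed glia in medium conditioned by L929 cells, shaken off, and treated for 2 days, which gave 4 anti-miR-99b and 4 sc-control libraries. For the co-culture, microglia treated in the same way were moved onto cortical neurons from CD1 embryos of day 17.5, and RNA of the whole culture was taken 2 days later (7 anti-miR-99b and 8 sc-control libraries). No separate animals or cultures are named for the libraries of the cell experiments, so the p values measure the spread between libraries, which may be technical. Reads on genes ranged from 21324156 to 37901110 per library.

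Siglecs are cell surface lectins with immunoglobulin domains that bind sialic acids, the sugars that cap the glycans of most mammalian cells. Many of them carry a tyrosine motif in the cytoplasm that recruits the phosphatases SHP-1 and SHP-2 (genes Ptpn6 and Ptpn11) and dampens activating signals, while others pair with the adaptor DAP12 (Tyrobp). On microglia they are known as receptors that sense the sialylated coat of neurons and restrain phagocytosis and inflammatory responses. Siglec-E, CD33, Siglec-F and Siglec-G belong to the group whose genes evolve fast between species, and Siglec-1 (sialoadhesin, CD169) is a conserved macrophage receptor known to be induced by interferon. Siglec-H is a DAP12-coupled receptor used as a marker of microglia and plasmacytoid dendritic cells.

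All 6 members were protein-coding genes that overlapped no other gene in GENCODE M21 (GRCm38). Siglecf (chr7:43351341-43359531, plus strand), Siglecg (chr7:43408204-43418358, plus strand), Cd33 (chr7:43524216-43544428, minus strand) and Siglece (chr7:43651070-43660161, minus strand) lay close together on chromosome 7. Siglech lay farther along the same chromosome (chr7:55768178-55778925, plus strand), and Siglec1 was on chromosome 2 (chr2:131069220-131086765, minus strand).

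The sequence that anti-miR-99b is directed against is shown first, since the seed (bases 2 to 8, in capitals) defines the sites that can be looked for in the members. It is the RefSeq entry of the mature miRNA on GRCm38.p6 (chr17:17830194-17830215, plus strand).
mmu-miR-99b-5p: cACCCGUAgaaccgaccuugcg
The 7 bases that pair with this seed, TACGGGT in DNA letters, were found in no 3′UTR of a protein-coding transcript of the 6 members. In GENCODE M21, 1.19% of the 21039 protein-coding genes with a 3′UTR held the site there. Over whole transcripts the site was found in 1 member, Siglece, and in 2.95% of all protein-coding genes. In Siglece it lay in the coding sequence of exon 2 of 7 (chr7:43659328-43659334, minus strand), and is printed with its surroundings, the site in capitals.
Siglece coding site: tttgagcaccaacacTACGGGTtcctcagt
A match of these letters is a description and does not show that the miRNA binds there.

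The 300 bases around the start of Siglece and Siglech (250 before and 50 after, RefSeq, GRCm38.p6) are shown because these genes differed in opposite directions between control microglia and control PFC, as given further on. Capitals mark GAGGAA on either strand, the core that the myeloid factor PU.1 (Spi1) is known to bind. The Siglece window was chr7:43660112-43660411 on the minus strand and that of Siglech chr7:55767934-55768233 on the plus strand.
Siglece promoter: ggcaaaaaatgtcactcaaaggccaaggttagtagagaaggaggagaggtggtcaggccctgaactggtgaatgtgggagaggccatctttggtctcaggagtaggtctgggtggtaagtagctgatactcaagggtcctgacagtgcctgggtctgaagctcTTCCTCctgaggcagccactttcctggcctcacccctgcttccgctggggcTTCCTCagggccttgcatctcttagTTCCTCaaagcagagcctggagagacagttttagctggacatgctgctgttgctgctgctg
Siglech promoter: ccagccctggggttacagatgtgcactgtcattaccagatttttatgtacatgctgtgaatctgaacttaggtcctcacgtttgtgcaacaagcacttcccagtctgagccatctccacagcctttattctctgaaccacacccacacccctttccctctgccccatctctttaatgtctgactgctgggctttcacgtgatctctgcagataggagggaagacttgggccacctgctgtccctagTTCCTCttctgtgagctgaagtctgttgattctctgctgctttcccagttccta
GAGGAA occurred 3 times in the Siglece window and 1 time in that of Siglech. It was present in 28.3% of the 32851 promoters of the same length. The windows of Cd33 and Siglecf each held it 1 time, and of the 2 windows of Siglecg 1 held it. For Siglec1 no window was available, so it was not searched. The match of letters in a window says nothing of binding in these cells.

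The sc-control libraries show where each receptor was expressed. The microglia and PFC controls did not enter the choice of the family, while the co-culture controls were 1 arm of the contrast that chose it, so comparisons with them are a description. Levels are normalized counts, that is CPM scaled with TMM factors, here set on 1 scale over the 15 control libraries. Strain, age, culture and experiment differed together with the kind of sample and cannot be told apart. Between control microglia and control PFC the median log2FC of all genes tested was -0.15, and between control microglia and control co-culture -0.17, so that differences of this size are a matter of scale.

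Siglec1, Cd33, Siglece and Siglecf were higher in the cultured microglia than in the PFC, and Siglech was lower. Of 5 members tested 4 were called higher and 1, Siglech, lower, and the call of Siglech is a description, as given below. The background over all 18274 genes tested was 26.4% higher and 37.0% lower in microglia, with called meaning a log2FC beyond 1 at an adjusted p value below 0.05 in edgeR's quasi-likelihood test. Siglec1 was at 564 ± 35.5 CPM (SD, n = 4) in the microglia and 1.77 ± 1.03 (SD, n = 3) in the PFC, a log2FC of 8.28 ± 0.13 (SE, adjusted p value 2.86e-27). Without PFC sc-control replicate 4, the PFC library with the most Siglec1, the log2FC was 8.86. Cd33 was at 146 ± 8.26 CPM in the microglia and 13.6 ± 3.00 in the PFC (log2FC 3.42 ± 0.08). Siglece was at 23.1 ± 1.19 CPM in the microglia and 0.888 ± 0.189 in the PFC, with a log2FC of 4.67 ± 0.11 (SE). The eosinophil and alveolar macrophage receptor Siglecf was at 7.61 CPM in the microglia and 0.943 in the PFC (log2FC 2.98 ± 0.16). For these 4 genes every microglia library was above every PFC library. The share of all genes that separated in this way was not counted. Of the 24 microglia markers 23 separated in this direction and 1 in the other, so the separation was not particular to the members.

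Siglech went the other way, and it passed the filter on low counts through the PFC libraries, where it was high. Its value is therefore given as a description without a p value. Siglech was read 1879 times in the 3 control PFC libraries and 22 times in the 4 control microglia libraries, 18.2 against 0.205 CPM (log2FC -6.35 ± 0.18 SE). From the reads alone the PFC level was 95.3 times that of the microglia, with a 95% counting interval of 62.8 to 153 (exact binomial). Of the 24 microglia markers, 22 were called higher in the microglia than in the PFC and 0 lower, with a median log2FC of 4.82. Tmem119, chosen here after its values were seen, was not called and stood at 28.4 CPM in the PFC and 17.0 in the microglia. The near absence of Siglech stood beside 3603 CPM of Csf1r, the receptor that microglia need to survive, in the same microglia. The listed markers of plasmacytoid dendritic cells, which also carry Siglec-H, gave 1 of 4 tested higher and 2 lower in the microglia. The background was 26.4% and 37.0% of all genes. The list summed to 574 to 641 CPM per control PFC library and 326 to 354 per control microglia library. Which cells expressed these genes was not tested, so the counts are not a measure of plasmacytoid dendritic cells.

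Siglecg, best known from B cells, had too few reads for the test in any contrast. It had 24 reads in the 3 control PFC libraries (0.233 CPM), 5 in the 4 microglia libraries (0.0530 CPM) and 4 in the 8 co-culture libraries (0.0173 CPM). B cell markers were summed at no more than 4.58 CPM in any library. Siglecg was thus at the limit of detection, where 3 reads over the co-culture controls correspond to 0.0131 CPM.

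The control co-culture held few microglial transcripts beside neuronal ones. The 24 microglia markers summed to 282 to 341 CPM per control co-culture library, against 21898 to 22951 in the microglia, while the 10 neuron markers summed to 8073 to 8390 CPM. In such bulk samples, fewer cells of a type and less RNA per cell cannot be told apart. All 5 members that passed the filter had a log2FC beyond 1 in control microglia over control co-culture. By the limits given above 24.3% of all genes were called higher and 35.2% lower, printed as background only. The sizes differed widely between members. Siglec1 was 481 times higher in the microglia (log2FC 8.91 ± 0.09 SE), Siglecf 106 times (6.72 ± 0.19), Cd33 81.2 times (6.34 ± 0.08) and Siglece 7.02 times (2.81 ± 0.07 SE). The value for Siglech (log2FC 3.14 ± 0.60) rested on 22 and 5 reads. It passed the filter of the joint control fit through its PFC reads. In a fit of only these 2 groups, 4 members were tested, and Siglech was not among them.

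Expressed as a share, control co-culture Siglece was 14.2% of its control microglia level, while Siglec1 was 0.207%, Siglecf 0.898% and Cd33 1.22%. The shares of Siglecg (32.6%) and Siglech (10.5%) rested on few reads in both groups and are left out of the figure. For the 24 microglia markers this share had a median of 1.01% and ran from 0.244% for Csf1r to 67.5% for Sall1. Sall1, a transcription factor that microglia share with neural cells, was the only marker with a share above that of Siglece, and the next one, Aif1, was at 4.68%. Siglec1 stood below all 24 markers. These are descriptions of ratios of means, and the place of Siglece in the order was not tested.

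**Figure D1:**
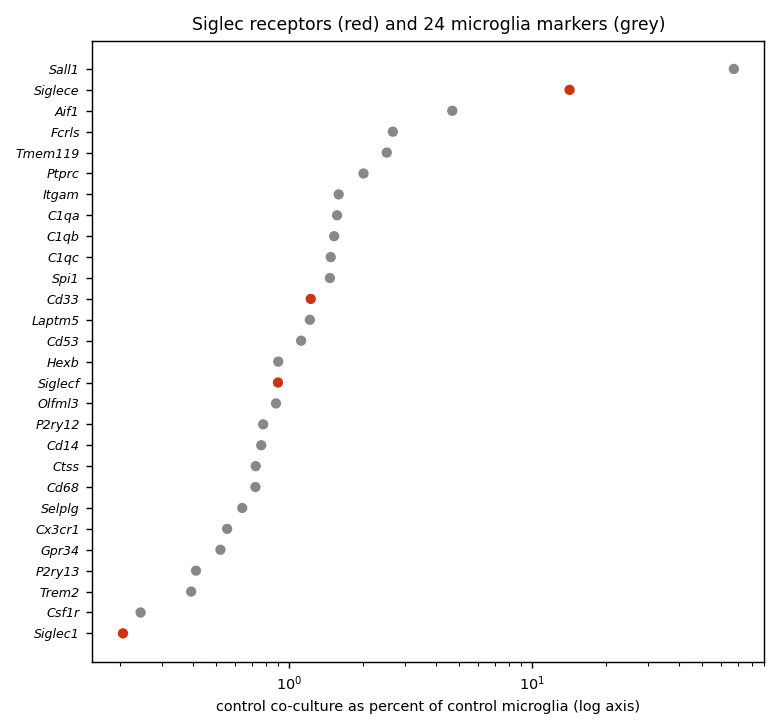
Level in the control co-culture as a percent of the level in control microglia (log axis) for 4 Siglec receptors (red) and 24 microglia markers (grey), 1 dot per gene from group means of 8 and 4 libraries. Siglece at 14.2% lies above every marker but Sall1, and Siglec1 at 0.207% below all of them. Siglecg and Siglech, which had few reads in both groups, are not drawn.

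Against the PFC, Siglece was the 1 member with a log2FC beyond 1 upwards in the control co-culture, and Siglech, Siglecf and Cd33 were beyond 1 downwards. By the same limits 14.9% of all genes were called higher and 20.5% lower, again as background only. Siglece was at 3.28 ± 0.331 CPM (SD, n = 8) in the co-culture and 0.888 in the PFC, and no library of one group reached the other (log2FC 1.86 ± 0.14 SE). How many of all genes separated like this was not counted. Of the 24 microglia markers 2 separated in this direction and 16 in the other. Of the 24 microglia markers, 0 were called higher and 15 lower in the co-culture by the same test, with a median log2FC of -1.41. Cd33 was 2.92 log2 units below the PFC (log2FC -2.92 ± 0.11) and Siglecf 3.75 (log2FC -3.75 ± 0.31). Siglech was read 5 times in all 8 control co-culture libraries. The PFC level was 863 times higher from the reads, with a 95% counting interval of 369 to 2661. Siglec1 had a log2FC of -0.63 ± 0.23 (SE), under the limit of 1, and without PFC sc-control replicate 4 it was -0.05.

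**Figure D2:**
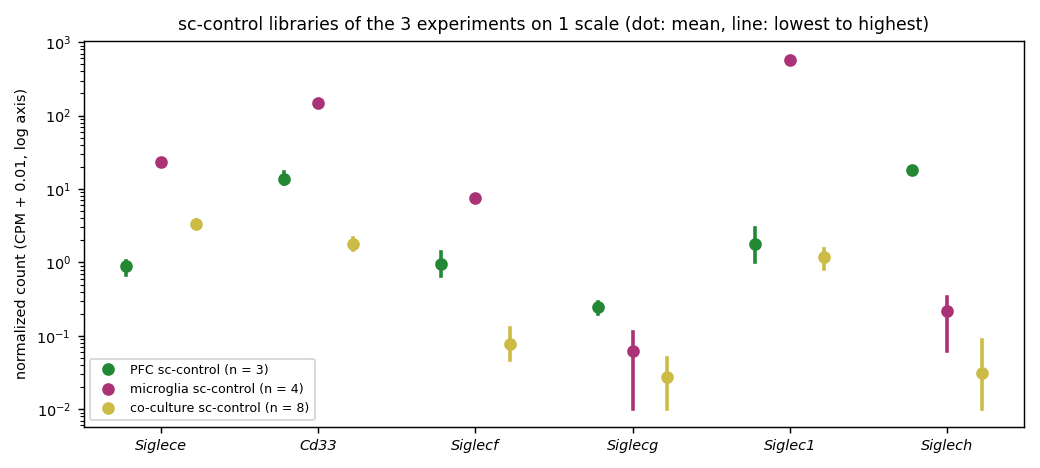
Normalized counts (CPM + 0.01, log axis) of the 6 receptors in the sc-control libraries of the PFC (n = 3), microglia (n = 4) and co-culture (n = 8), with a dot at the mean and a line from the lowest to the highest library. Siglech is high in the PFC alone, and Siglece is the member whose co-culture level lies above its PFC level.

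To compare levels between genes, CPM were divided by the exon length in kb, taken as all annotated exons of a gene together. For Cd33 this was 7771 bases, while its protein-coding transcripts had 933 to 5728. In the control PFC the order was Siglech (5.39 ± 0.461 CPM per kb, SD), Cd33 (1.75 ± 0.386), Siglece (0.480 ± 0.102), Siglecf (0.338 ± 0.134), Siglec1 (0.248 ± 0.144) and Siglecg (0.0486 ± 0.00940), where the ranges of Siglece, Siglecf and Siglec1 overlapped with their neighbour in the order. In the control microglia it was Siglec1 (78.9 ± 4.97 CPM per kb), Cd33 (18.8 ± 1.06), Siglece (12.5 ± 0.642) and Siglecf (2.73 ± 0.195), all apart from each other, followed by Siglech and Siglecg, which overlapped. In the control co-culture Siglece came first (1.78 ± 0.179 CPM per kb), apart from Cd33 (0.231 ± 0.0316) and Siglec1 (0.163 ± 0.0383), which overlapped with each other. Among the 6 members, each kind of sample thus had another leading gene by this measure. The order may change with the length used, and other lengths were not tried.

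The question of the treatment contrasts was what inhibition of miR-99b-5p does to the receptors. From here on CPM are scaled within each experiment. In the PFC 5 of the 6 members passed the filter on low counts. By edgeR's quasi-likelihood test 0 of these 5 were called with limits of 0.1 for the adjusted p value and 0.2 for the log2FC, where 0.0864% of 17364 genes were called. DESeq2 called 0 as well, and 1 member, Siglece, had an unadjusted p value under 0.05. All 5 had a log2FC above 0, with a median of 0.32 against 0.00 over all genes.

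Siglece in the PFC was at 1.43, 1.75 and 1.28 CPM after anti-miR-99b and at 1.01, 0.705 and 1.08 CPM after sc-control. The groups did not overlap, which held in this direction for 7.52% of all genes. The log2FC was 0.66 ± 0.23 (SE) with an adjusted p value of 0.611, on 20 to 49 reads per library. In lane 6, which held 2 mice of each group, of the sequencer the difference of mean log2(CPM + 0.5) was 0.63, and in lane 7 with 1 of each it was 0.18. Siglecg, which was not tested, had higher CPM in all 3 anti-miR-99b mice, at 0.531, 0.393 and 0.296 against 0.196, 0.247 and 0.291, on 7 to 13 reads. Its reads overlapped, with 9 in anti-miR-99b replicate 3 and 10 in sc-control replicate 4, so the separation rested on the scaling to depth.

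Siglec1 in the PFC was at 3.63, 2.79 and 2.66 CPM after anti-miR-99b and at 1.42, 1.06 and 3.09 CPM after sc-control. The sc-control mouse at 3.09 (replicate 4) was within the anti-miR-99b range, and the other 2 were below it. The log2FC was 0.68 ± 0.33 (SE, adjusted p value 0.66), and without sc-control replicate 4 it was 1.26 with an adjusted p value of 0.047 in edgeR. Replicate 4 was the highest control, so leaving it out raises the log2FC by construction. That fit called 195 genes higher and 6 lower of 17630, against 15 and 0 of 17364 with all mice. Within lanes the difference was 1.09 in lane 6 and -0.18 in lane 7, where that mouse was the only control. Cd33 was at 13.9, 19.2 and 18.6 CPM against 12.6, 12.3 and 17.9, again with replicate 4 highest among the controls (log2FC 0.27 ± 0.16 SE, within lanes 0.38 and 0.05).

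Siglecf had a log2FC of 0.32 ± 0.30 and ranged from 0.669 to 1.43 CPM, with overlapping groups (within lanes 0.37 and -0.0100). Siglech, with the highest mean CPM of the receptors in the PFC, was at 18.3, 20.4 and 21.6 CPM after anti-miR-99b and 17.5, 18.9 and 20.9 CPM after sc-control. Its log2FC was 0.08 ± 0.10 (SE), with a 95% interval from -0.11 to 0.27 under a normal approximation (within lanes 0.09 and 0.05).

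Other lists of genes were measured in the same mice. Of the 24 microglia markers, 22 had a log2FC above 0 in the PFC, with a median of 0.28, and 0 were called by edgeR (10 at an unadjusted p value under 0.05, 2 called by DESeq2, and 10 by edgeR without sc-control replicate 4). Their sum was 1244, 1307 and 1194 CPM after anti-miR-99b and 913, 887 and 1239 CPM after sc-control, with replicate 4 again at the level of the treated mice. The 8 border macrophage markers summed to 41.4 to 46.4 CPM after anti-miR-99b and 36.9 to 48.2 after sc-control. All 20 interferon-stimulated genes were above 0 (median 0.90), of which Mx2 passed the threshold (log2FC 1.45 ± 0.18, adjusted p value 0.032 in edgeR, and DESeq2 called 8). Without sc-control replicate 4 edgeR called 13 of them, and without anti-miR-99b replicate 2, sc-control replicate 2 or sc-control replicate 3 it called 0. The fit without sc-control replicate 4 called 195 of all 17630 genes higher. The part of these shifts in the values of Siglec1, Cd33 and Siglece was not tested.

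**Figure D3:**
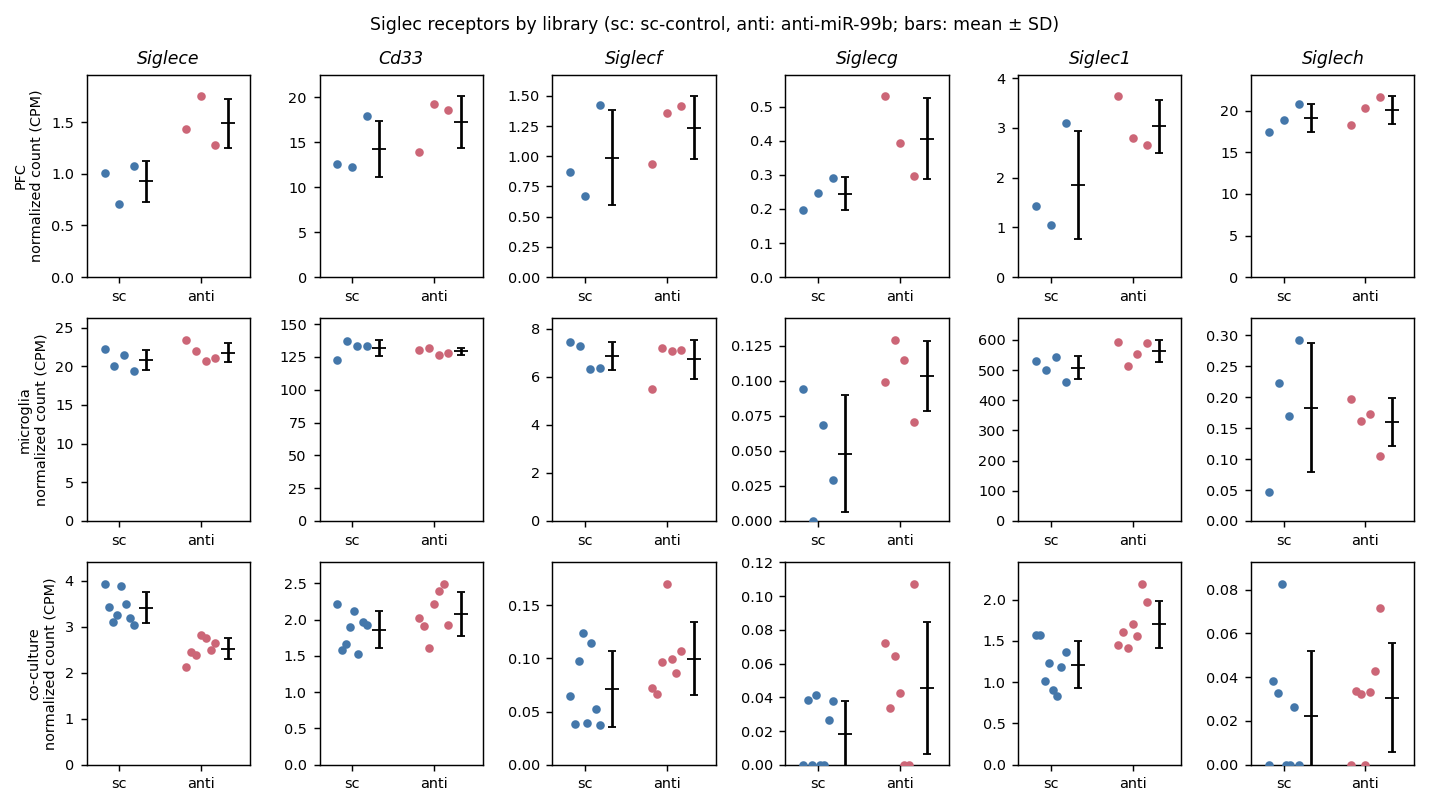
Normalized counts (CPM) of the 6 receptors (columns) in each library of the PFC, microglia and co-culture (rows), with sc-control in blue, anti-miR-99b in red and mean ± SD in black. Siglece is the member whose groups separate in the co-culture, with all 7 anti-miR-99b libraries under all 8 sc-control libraries, and 1 PFC sc-control mouse lies among the treated mice for Siglec1.

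In the primary microglia 4 members were tested and 0 were called (limits of 0.1 for both the adjusted p value and the log2FC, edgeR), beside 0.488% of 14953 genes. DESeq2 called 0, and Siglec1 had an unadjusted p value under 0.05. Siglec1 was at 594, 515, 552 and 588 CPM after anti-miR-99b and at 529, 502, 542 and 459 CPM after sc-control. The ranges overlapped, with 1 treated library (515) inside the control range. The log2FC was 0.15 ± 0.04 (SE, adjusted p value 0.345), and 0.10 and 0.19 within lanes 5 and 6. Leaving out anti-miR-99b replicate 3 gave 0.19 with an adjusted p value of 0.0485, and leaving out sc-control replicate 2 gave 0.17 with 0.0452, and either was past the threshold in edgeR. Leaving out any other library gave 0.10 to 0.18, with adjusted p values of 0.303 to 0.996 in edgeR and no call. Siglec1 was also called with a factor of unwanted variation and without the filter on low counts. With the replicate block its log2FC was 0.03 (adjusted p value 0.871, edgeR).

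Siglece was at 23.4, 21.9, 20.7 and 21.02 CPM in treated microglia and 22.3, 20.0, 21.5 and 19.4 CPM in the controls. The ranges lay over each other, and the log2FC of 0.07 ± 0.05 (SE) had a 95% interval from -0.03 to 0.18 (within lanes 0.10 and 0.03). Cd33 was at 130, 132, 126 and 128 CPM against 123, 137, 134 and 133 CPM, with a log2FC of -0.03 ± 0.03 (within lanes 0.01 and -0.07). Siglecf had a log2FC of -0.02 ± 0.09, with -0.21 and 0.15 within lanes, and treated replicate 1 at 5.51 CPM was below the other 3 treated libraries at 7.05 to 7.19. Siglech stayed at 1 to 10 reads and Siglecg at 0 to 4 reads per library.

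In the same microglia 18 of the 20 interferon-stimulated genes were called higher and 0 lower, with a median log2FC of 0.47, against a background of 0.435% of genes called higher (DESeq2 called 3 of the 20). This count rested on single libraries. It was 0 without sc-control replicate 4 or without anti-miR-99b replicate 5, 1 without sc-control replicate 6, 2 without anti-miR-99b replicate 1, 8 without anti-miR-99b replicate 4, and 17 to 20 without any 1 of the other 3. All 20 had a log2FC above 0 in each of these fits, with medians of 0.38 to 0.56. With all libraries Irf7, an interferon-induced transcription factor, had a log2FC of 0.65 ± 0.11 (SE, adjusted p value 0.0106, edgeR), and the antiviral genes Oas1a and Ifit3 had 0.40 and 0.71. Of the 24 microglia markers 0 were called by either tool, with a median log2FC of 0.02. The difference between the change of Siglec1 and that of the interferon-stimulated genes was not tested.

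**Figure D4:**
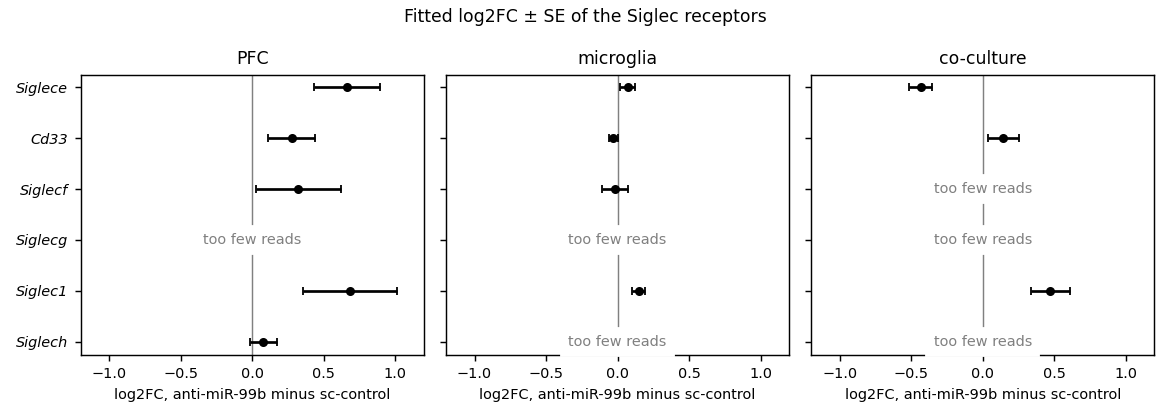
Fitted log2FC ± SE of anti-miR-99b against sc-control for the members in the PFC, microglia and co-culture, with members that had too few reads for the fit marked as such. The log2FC of Siglece is 0.66, 0.07 and -0.43 in the 3 experiments.

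In the co-culture, the contrast that chose the family, Siglece was lower in every anti-miR-99b library. It ranged from 2.13 to 2.81 CPM with a median of 2.49 (n = 7, 58 to 83 reads), against 3.03 to 3.93 CPM with a median of 3.34 after sc-control (n = 8, 79 to 122 reads). The log2FC was -0.43 ± 0.08 (SE), or 0.74 of the control level. As background, 0.556% of 16193 genes were called lower in this contrast (limits of 0.05 for the adjusted p value and 0.1 for the log2FC), and 0.278% were lower without overlap of the groups. Nothing is read from these shares for Siglece, since its value chose the family. Within lanes 4, 5, 6 and 7 the difference of mean log2(CPM + 0.5) was -0.58, -0.43, -0.27 and -0.20. With each library left out in turn the log2FC lay between -0.46 and -0.40.

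The other members were not lower. Siglec1 ranged from 1.42 to 2.19 CPM (median 1.61) after anti-miR-99b and from 0.837 to 1.58 CPM (median 1.21) after sc-control. The ranges overlapped in part, and the log2FC was 0.47 ± 0.14 (SE), with -0.04, 0.31, 0.72 and 0.43 within lanes. Cd33 ranged from 1.61 to 2.49 CPM after treatment and from 1.52 to 2.22 in the controls (log2FC 0.14 ± 0.11, and 0.05, -0.18, 0.42 and 0.17 within lanes). Siglecf, Siglecg and Siglech had 0 to 4 reads per library and are below what the depth can compare.

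Most microglia markers went in the opposite direction to Siglece. This pattern was part of what prompted the choice of the family and is a description. Of 24 markers 22 had a log2FC above 0, with a median of 0.25 against 0.00 over all genes, and 0.846% of all genes were called higher. The lysosomal protein gene Cd68 was at 17.8 CPM after treatment and 13.1 in the controls (log2FC 0.43 ± 0.05), and Cd14, a receptor for lipopolysaccharide, at 9.13 and 6.43. In 5 of the 24 all treated libraries were above all controls, which was so for 0.303% of genes. The summed markers ranged from 326 to 373 CPM after anti-miR-99b and from 282 to 341 CPM after sc-control, so that these sums overlapped while the levels of Siglece did not. The neuron markers summed to 8176 to 8331 CPM and 8073 to 8390 CPM, and the border macrophage markers to 25.4 to 27.96 and 19.8 to 25.2 CPM. The neutrophil and monocyte markers, cell types that also carry Siglec-E, were near 0 in both groups, with sums of at most 0.322 CPM, and S100a9 and Retnlg had no read in any co-culture library.

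**Figure D5:**
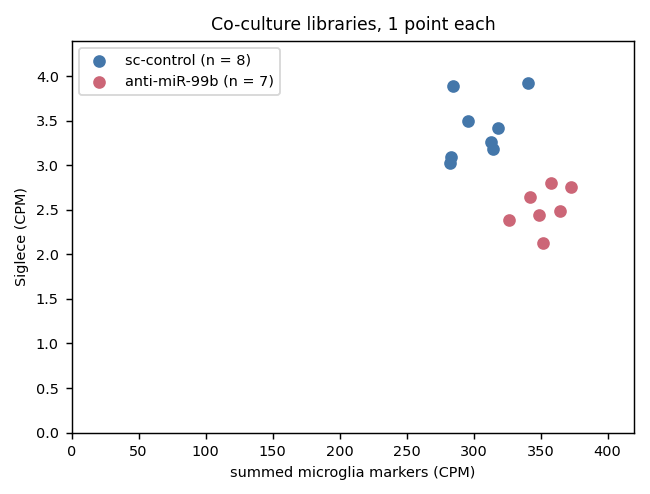
Siglece (CPM, vertical axis) against the summed level of the 24 microglia markers (CPM, horizontal axis) in the 15 co-culture libraries, with sc-control in blue (n = 8) and anti-miR-99b in red (n = 7). The anti-miR-99b libraries lie under 2.81 CPM of Siglece at marker sums of 326 to 373, and the sc-control libraries above 3.03 at sums of 282 to 341.

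Likeness to the members was taken over the 15 co-culture libraries, as Pearson's r of log2(CPM + 0.5) after the group means were removed, among 14185 other genes of at least 1 CPM. For Siglece the 5 highest were Trim12c (0.84), Gm12198 (0.81), Tpbgl (0.80), Ppib (0.79) and Tlr8 (0.78). For Siglec1 they were Pdzrn4 (0.85), Slc11a1 (0.81), Gm26777 (0.81), Slc25a47 (0.80) and Gm29093 (0.79), and for Cd33 Shroom3 (0.88), Melk (0.87), Arpc3 (0.83), Alkbh3 (0.82) and the microglia marker Fcrls (0.81). These are the top values among many genes, in libraries with 22 to 122 reads of each member, so values of this size are a description only. Over the 20 microglia markers with at least 1 CPM the median r was 0.21 for Siglece, 0.32 for Siglec1 and 0.30 for Cd33, against 0.01, 0.00 and 0.00 over all genes. The points share their libraries, and no test was made.

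The other genes around the receptors were described from lists of signalling partners, ligand synthesis and ligand removal. Counts for the co-culture come from the contrast that chose the family and are a description. Over all genes edgeR called 0.0864% in the PFC and 0.488% in the microglia, in either direction. In the co-culture it called 0.846% higher and 0.556% lower. These shares are the background for the counts of this and the next paragraph. Of the signalling partners, 0 of 9 tested were called in the PFC, 0 of 10 in the microglia and 1 of 9 in the co-culture by edgeR, and DESeq2 called 0, 0 and 1. At an unadjusted p value under 0.05 there were 4, 1 and 1. The gene called in the co-culture was Tyrobp, the DAP12 adaptor, at 11.3 CPM after anti-miR-99b and 8.74 after sc-control (log2FC 0.37 ± 0.07). In the PFC Inpp5d (SHIP1) was at 29.5 and 22.6 CPM (log2FC 0.38 ± 0.10, adjusted p value 0.352) and Tyrobp at 29.8 and 22.2 CPM (0.42 ± 0.13, adjusted p value 0.536). Without sc-control replicate 4 edgeR called 2 of the partners there, Tyrobp among them, beside 195 of all 17630 genes called higher. In the microglia the smallest p values were those of the kinase gene Src (log2FC 0.10 ± 0.05) and the adaptor gene Hcst (-0.12 ± 0.09).

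The genes that make sialic acid were not called in any treatment contrast by edgeR (0 of 4, 5 and 4 tested in the PFC, microglia and co-culture). DESeq2 called 1 in the co-culture, and at an unadjusted p value under 0.05 there were 0, 0 and 1. In the co-culture this was Nans, the sialic acid synthase (log2FC 0.11 ± 0.03). Of the sialyltransferases, which attach the sugar, 0 of 19, 0 of 16 and 0 of 18 were called by edgeR and 0 by DESeq2, with 1, 0 and 1 at an unadjusted p value under 0.05. In the PFC the smallest p was that of St8sia3 (118 and 135 CPM, log2FC -0.20 ± 0.08), and in the co-culture of St6galnac5 (log2FC -0.04 ± 0.02). Of the 4 sialidases, which remove it, 0 were called in the PFC, 0 of 2 in the microglia and 0 of 3 in the co-culture by either tool, and Neu4 in the PFC was the 1 with an unadjusted p value under 0.05 (log2FC 0.30 ± 0.10).

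Between the control groups several ligand genes differed, and the 4 given here were chosen after their values were seen. Their values are a description without a p value. Cmah, the hydroxylase that makes the N-glycolyl form of sialic acid, was at 10.8 CPM in the control microglia, 0.434 in the co-culture and 0.126 in the PFC (log2FC 6.39 ± 0.22 SE for microglia against PFC). St8sia2, the polysialic acid synthase of developing neurons, was at 295 CPM in the control co-culture and 6.47 in the PFC (log2FC 5.52 ± 0.05). St8sia3 was at 129 CPM in the PFC, 165 in the co-culture and 0.225 in the microglia. Neu1, the lysosomal sialidase, was highest in the microglia, at 157 CPM against 73.7 in the PFC and 32.1 in the co-culture.

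Of the other mouse Siglecs, Mag and Cd22 passed the filter. Mag, the myelin-associated glycoprotein of oligodendrocytes, was at 216 ± 2.69 CPM after anti-miR-99b and 208 ± 16.9 after sc-control in the PFC (log2FC 0.05 ± 0.07). In the microglia it was at 9.11 ± 0.727 and 10.4 ± 1.02 CPM (log2FC -0.19 ± 0.08, adjusted p value 0.657, edgeR). Cd22, the inhibitory receptor known from B cells, was at 18.7 ± 1.06 and 18.0 ± 1.22 CPM in the microglia (log2FC 0.06 ± 0.06). In the PFC it was at 1.59, 1.501 and 1.38 CPM after anti-miR-99b and 0.531, 0.458 and 1.63 CPM after sc-control, with the same sc-control replicate 4 as for Siglec1 at the highest value (log2FC 0.75 ± 0.40, adjusted p value 0.671). Without that replicate Cd22 was the 1 of these 2 genes that edgeR called, beside 195 of all 17630 genes called higher. Leaving out the highest control raises the log2FC by construction. Cd22 overlaps the gene Gm29439, so its counts are uncertain where strand was not used. Siglec15 had 0 to 7 reads per library.

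Markers of other cell types gave few calls in the treatment contrasts. Over all genes edgeR called 0.0864% in the PFC, 0.488% in the microglia, and 0.846% higher and 0.556% lower in the co-culture. The neuron (10 tested in each experiment), astrocyte (8), B cell (1), plasmacytoid dendritic cell (4, 4 and 3 in the PFC, microglia and co-culture), and monocyte and neutrophil markers (4, 2 and 0) had 0 called by edgeR and 0 by DESeq2. At an unadjusted p value under 0.05 there were 0, 1 and 1 neuron markers, 1, 0 and 1 astrocyte markers, 1, 0 and 0 B cell markers, 1, 0 and 0 plasmacytoid dendritic cell markers and 1, 0 and 0 monocyte and neutrophil markers. Of the border macrophage markers, Ms4a7 was the 1 of 4 called in the co-culture (log2FC 0.50 ± 0.07), with 0 of 8 in the PFC and 0 of 7 in the microglia by either tool (0 and 1 at an unadjusted p value under 0.05). Of the interferon-stimulated genes 1 of 20 was called in the co-culture, Rsad2 (log2FC 0.39 ± 0.09), and all 20 were above 0 with a median of 0.22 (DESeq2 called 2). The eosinophil markers, of cells known for Siglec-F, summed to at most 2.15 CPM in any library, and Ear1 had no read in 6 of the 6 groups.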

How the data were processed

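The libraries were made with TruSeq chemistry and sequenced as single reads of 50 bases. Per the paper and the labels, the authors demultiplexed with bcl2fastq 2.20.2, checked quality with FastQC 0.11.5, aligned to mm10 with STAR 2.5.2b and counted genes with featureCounts 1.5.1. The annotation release and the strand setting are not given in the sources used here. The deposited values were raw counts per Ensembl gene, 1 table per experiment, and 48349 of 48709 identifiers matched a symbol.

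Counts were tested with edgeR 4.0.16 (R 4.3.3): TMM factors, filterByExpr, the quasi-likelihood test and Benjamini-Hochberg adjustment over all genes tested, without covariates. A gene was called at an adjusted p under 0.1 and an absolute log2FC over 0.2 (PFC) or 0.1 (microglia), under 0.05 and over 0.1 (co-culture), or under 0.05 and over 1 (controls, 1 fit of 15 libraries). The fits were tested on simulated data. The limit set there on recovery of genes changed by a log2FC of 1 was not applied to the PFC comparison. Alternatives were DESeq2 1.42.0, RLE factors, no filter, a lane block, a replicate block, 1 RUVs factor, and each library left out. The members and gene lists were chosen with earlier results of these data known. Named were the members, the other Siglecs, and of each list up to 3 called genes by p or else the 2 with the smallest p, apart from genes said to be chosen later. Ranges from counting reads cover counting error only. The oligodendrocyte markers are not reported here.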

Additional observations from a re-analysis of the deposited data

Results flagged for a closer look

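Each group of 4 to 10 libraries was screened, gene by gene over the 9 Siglec family genes, for a library far from the others by Dixon's criterion. Of 36 groups 5 stood out, where chance gives about 1 in 20. In 3 of them the value rested on a few reads. Siglech in co-culture sc-control replicate 5 was at 0.0826 CPM, or 2 reads, with the others at 0 to 0.0384. Siglecf in co-culture anti-miR-99b replicate 7 was at 0.170 CPM, or 4 reads, with the others at 0.0670 to 0.107. Siglec15 in co-culture anti-miR-99b replicate 10 was at 0.0997 CPM, or 3 reads, with the others at 0 to 0.0361. The other two were in the same library, anti-miR-99b replicate 1 of the microglia, which was lowest in Siglecf at 5.51 CPM (others 7.05 to 7.19) and in Cd22 at 17.1 CPM (others 19.2 to 19.3).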

How the results depend on the processing

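Of the members, 0 were called in the PFC and 0 in the microglia by edgeR, 1 in the co-culture, and 5, 4 and 5 between the control groups (microglia against co-culture, co-culture against PFC, microglia against PFC). The co-culture count restates the choice of the family. The control counts stayed within 1.5 times under every alternative run. Siglech, counted in each of them, passed the filter through its PFC reads. Leaving out 1 library gave 0 to 1 called in the PFC (Siglec1, without sc-control replicate 4), 0 to 1 in the microglia (Siglec1, without anti-miR-99b replicate 3 or sc-control replicate 2) and 1 to 2 in the co-culture (Siglec1 also, without sc-control replicate 1). A RUVs factor gave 1 in the microglia and 2 in the co-culture, and no filter gave 1 in the microglia, in each case by adding Siglec1. The cause was not tested. The log2FC of Siglecf in the microglia, -0.017, turned to 0.065 with the replicate block and lay between -0.053 and 0.063 when 1 library was left out. Samples with the same number did not deviate together (correlations of deviations 0.07 and -0.36 in the PFC, -0.10 and -0.06 in the microglia, -0.03 to 0.06 in the co-culture). Few numbers occurred in both groups, so these correlations cannot settle whether the numbers pair samples. The labels do not say so, and the main fits treated the libraries as unpaired. The replicate block keeps only libraries whose number occurs in both groups, and gave 2 called in the PFC (Siglec1 1.14 and Cd33 0.61), 0 in the microglia and 0 in the co-culture, where the log2FC of Siglece was -0.41. Over all genes, calls higher and lower in the PFC were 15 and 0, against 85 and 8 with DESeq2, 73 and 4 with the lane block, 475 and 43 with the replicate block, 192 and 92 with RUVs and 297 and 115 without the filter. In the microglia they were 65 and 8, against 33 and 5, 69 and 9, 87 and 162, 118 and 42, and 138 and 29. In the co-culture they were 137 and 90, against 158 and 129, 85 and 36, 70 and 23, 284 and 236, and 191 and 99. Leaving out 1 library moved these counts further. In the PFC, higher calls ran from 1 (without anti-miR-99b replicate 2 or sc-control replicate 2) to 195 (without sc-control replicate 4). In the microglia they ran from 0 (without sc-control replicate 4) and 2 (without anti-miR-99b replicate 5) to 234 (without sc-control replicate 2), and lower calls from 2 to 175. In the co-culture they ran from 89 to 159 and lower calls from 49 to 141. Depth limits Siglecg everywhere and Siglech and Siglecf in the co-culture, where 3 reads over the control group equal 0.0131 CPM.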
